A study of Mus musculus with 10 samples.

Results

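The 100 beta-chain clonotypes with the highest count in each of 10 T cell receptor libraries were described. Beta-chain entries were those whose CDR3 ended in 1 of 10 residue endings of the TRBJ genes, a clonotype was a V gene, a J gene and a CDR3 nucleotide sequence, and ties at rank 100 were broken by the alphabetical order of the CDR3. The rule gave 1000 members, 100 in each library, out of 193012 beta clonotypes in all, and the 1000 were 994 distinct clonotypes. The members were chosen by their counts, so their counts and shares of counts are given as a description, with no test.

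Regulatory T (Treg) cells had been isolated from the spleen of untreated mice and sequenced directly, with no culture. The 5 CNS4KO libraries came from mice that lack CNS4, a distal enhancer of Foxp3. Foxp3 encodes the lineage-defining transcription factor of Treg cells. The 5 CNS4Flox libraries came from mice with the floxed enhancer, which the labels enter as WT. The labels give no age, sex, driver of deletion or cell number, and do not say whether replicates are separate mice, so p-values measure only the spread between these samples. The libraries hold receptor chains only, so neither the deletion nor any Treg cell marker could be checked in them.

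The beta chain of a T cell receptor is joined from a V, a D and a J gene segment, and its CDR3 loop spans the joints and touches the antigen. Bases trimmed from the segment ends and bases inserted by the enzyme terminal transferase make the joints diverse, so most sequences are rare and those with few inserted bases recur between animals. Cells that descend from 1 rearrangement share a CDR3 nucleotide sequence, and a clonotype with a high count marks such a family or cells rich in receptor RNA, which cannot be told apart in bulk libraries.

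The clonotype with the highest count in each library shows what the lists hold. The CDR3 is printed from its conserved cysteine codon, 5′ to 3′, and capitals mark the bases between the V match and the J match, that is, the D segment and any inserted bases.
CNS4KO 1: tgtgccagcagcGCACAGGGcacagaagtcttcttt
CNS4KO 2: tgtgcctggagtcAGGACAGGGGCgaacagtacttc
CNS4KO 3: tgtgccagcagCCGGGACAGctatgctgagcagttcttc
CNS4KO 4: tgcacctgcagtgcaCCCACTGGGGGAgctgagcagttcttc
CNS4KO 5: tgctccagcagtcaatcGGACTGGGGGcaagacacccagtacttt
CNS4Flox 1: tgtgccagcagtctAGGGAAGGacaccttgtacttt
CNS4Flox 2: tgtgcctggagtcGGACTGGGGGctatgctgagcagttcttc
CNS4Flox 3: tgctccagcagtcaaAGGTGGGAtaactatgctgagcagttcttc
CNS4Flox 4: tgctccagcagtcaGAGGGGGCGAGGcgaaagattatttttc
CNS4Flox 5: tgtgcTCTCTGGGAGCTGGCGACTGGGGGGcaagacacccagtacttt

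In the CNS4KO libraries these leaders had counts of 506 (TRBV4, TRBJ1-1), 72 (TRBV31, TRBJ2-7), 250 (TRBV26, TRBJ2-1), 366 (TRBV1, TRBJ2-1) and 61 (TRBV23, TRBJ2-5). In the CNS4Flox libraries they had 16 (TRBV26, TRBJ2-4), 72 (TRBV31, TRBJ2-1), 137 (TRBV23, TRBJ2-1), 31 (TRBV23, TRBJ1-4) and 75 (TRBV2, TRBJ2-5). The 10 leaders used 6 V genes and no 2 of them were the same clonotype. The CNS4KO 5 and CNS4Flox 2 leaders were counted with no inserted base, and their capitals are the same run of TRBD2 bases behind different V genes. The CNS4Flox 5 leader was counted with 15 inserted bases, the most of the 10, and its V match within the CDR3 was the shortest of the 10. Whether its V gene is rightly named, or some of the 15 are V bases left unmatched, was not tested. The count of inserted bases takes the smallest D to J spacing found as no insertion. A joint with a D segment named may thus hold 1 base more than counted. Only the CNS4Flox 3 leader occurred in another library by nucleotides, with a count of 44 in CNS4KO 5, where it ranked 3. The CNS4KO 3 and CNS4Flox 2 leaders were each found in 5 other libraries by V, J and CDR3 residues, always with another nucleotide sequence.

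Beta counts ran from 19199 to 34833 per library, out of 61793 to 95853 counts for both chains. The top 100 held 11.7%, 8.97%, 9.71%, 9.60% and 4.56% of beta counts in the CNS4KO libraries, against 2.54%, 3.60%, 4.86%, 3.4% and 3.49% in the CNS4Flox libraries. The mean was 8.92 ± 2.65% for CNS4KO and 3.58 ± 0.833% for CNS4Flox (SD over 5 libraries each), and CNS4KO 5 lay below CNS4Flox 3. The first 10 clonotypes held 3.65 ± 1.90% of beta counts in CNS4KO and 0.959 ± 0.396% in CNS4Flox. The member at rank 50 had counts of 15, 11, 12, 21 and 11 in the CNS4KO libraries, against 5, 8, 11, 6 and 6 in the CNS4Flox libraries. The CNS4KO lists thus reached rank 50 at counts of 11 to 21 and the CNS4Flox lists at 5 to 11, as the plot of count against rank shows. CNS4KO 5 and CNS4Flox 3 share more clonotypes than any other libraries, as given with the values on presence elsewhere. Results that rest on this are given with and without them, apart from the split of presence by inserted bases.

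**Figure D1:**
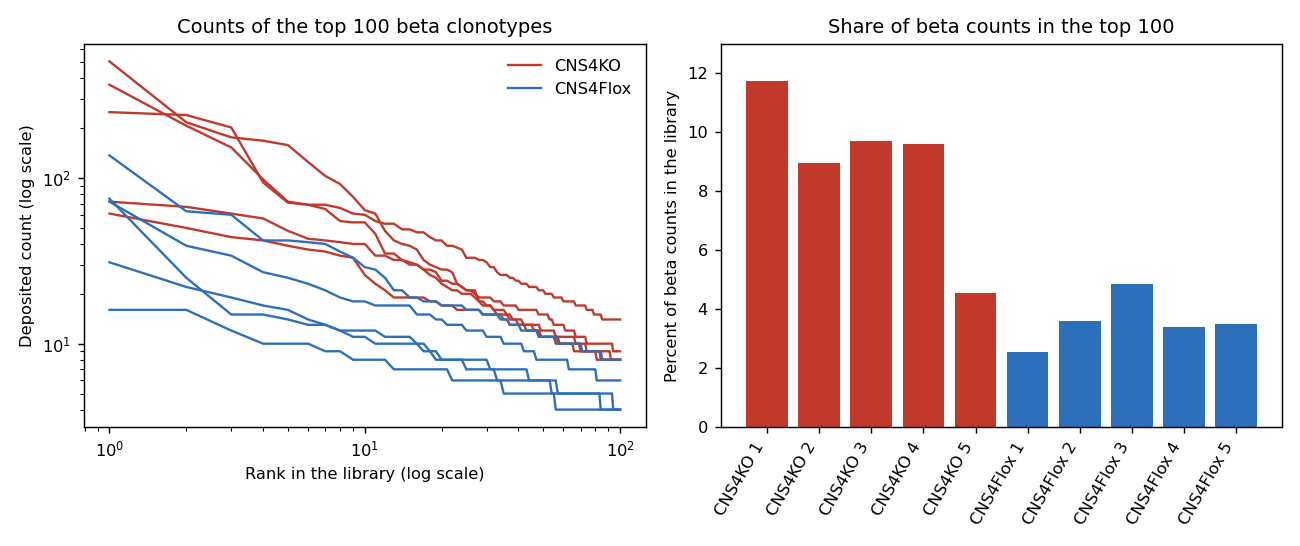
Left, deposited count of each top 100 beta clonotype against its rank, both on log scales, 1 line per library. Right, percent of the library's beta counts held by its top 100. The CNS4KO libraries hold 4.56 to 11.7%, and the CNS4Flox libraries 2.54 to 4.86%.

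The lower edge of the lists was decided by ties. The member at rank 100 had a count of 9, 8, 8, 14 and 8 in the CNS4KO libraries, against 4, 6, 8, 4 and 4 in the CNS4Flox libraries. The clonotype just outside had 9, 7, 8, 14 and 8 in CNS4KO, against 4, 6, 8, 4 and 4 in CNS4Flox, so only CNS4KO 2 had an edge without a tie across it. Over the CNS4KO libraries 116 clonotypes had the count of rank 100 and 68 of them were kept. Over the CNS4Flox libraries 377 had it and 106 were kept. In CNS4Flox 1 only 55 members lay above that count, and the other 45 were kept out of 87 tied clonotypes. The other libraries had 7 to 20 tied members, so tie order weighs most on the values of CNS4Flox 1.

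Alphabetical order of the tied CDR3s does not treat V genes alike. All 34 tied TRBV1 clonotypes and 28 of 33 tied TRBV23 clonotypes were kept, whereas 14 of 94 tied TRBV31 clonotypes and 0 of 17 tied TRBV29 clonotypes were. Of the 34 TRBV1 clonotypes, 6 were in CNS4KO and 28 in CNS4Flox libraries. The 14 TRBV31 clonotypes kept were all in CNS4KO libraries, out of 34 tied there, while 0 of 60 were kept in CNS4Flox libraries. V gene results were therefore also computed with tied clonotypes taken in reverse order or left out. These 2 settings were chosen after the data were seen.

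TRBV31 was the most used V gene of the top 100. It lies at chr6:41557693-41558371 (mm10), downstream of the J genes and in the opposite orientation to the other V genes. It was carried by 29, 37, 27, 18 and 24 of the 100 members in the CNS4KO libraries, against 13, 25, 25, 19 and 29 in the CNS4Flox libraries, and the groups overlapped. With ties in reverse order TRBV31 had 35, 37, 32, 18 and 29 members in CNS4KO, against 31, 34, 30, 19 and 38 in CNS4Flox. The means were then 30.2 ± 7.46 and 30.4 ± 7.09. TRBV26 followed with 12, 7, 14, 9 and 12 members in CNS4KO, against 16, 13, 17, 17 and 5 in CNS4Flox. TRBV19 had 12, 15, 13, 6 and 12 in CNS4KO, against 12, 8, 8, 8 and 9 in CNS4Flox, and TRBV23 had 11, 10, 3, 6 and 7 in CNS4KO, against 12, 4, 6, 10 and 16 in CNS4Flox. All 22 TRBV genes named among beta clonotypes occurred among the 1000 members, but TRBV13-2 was found 3 times and TRBV24 2 times. Members paired V and J genes in 199 of 264 possible combinations, of which TRBV31 with TRBJ2-7 was the most frequent with 44 members.

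Each clonotype counted once, V gene use of the top 100 was set against that of the other beta clonotypes of the same library. The rule used counts and not gene names, but its alphabetical order of tied CDR3s favours some V genes. Of the 1000 members 174 had the count of rank 100. The V gene tests are thus not free of the rule, and values with ties in reverse order are given below. In edgeR's quasi-likelihood test with library as a block, 13 of the 18 V genes with at least 10 members passed a Benjamini-Hochberg adjusted p of 0.05, which is 72.2% of those tested. Of these, 6 were higher in the top 100 (33.3%) and 7 were lower (38.9%). The median log2 fold change over the 18 genes was 0.02. The filter counts members only, so it left out 4 genes that were rare in the top 100, TRBV3, TRBV5, TRBV13-2 and TRBV24. TRBV3 was at 0.700 ± 0.823% of the top 100 and 6.38 ± 0.909% of the others. TRBV5 was at 0.800 ± 1.03% of the top 100 and 6.52 ± 0.566% of the others. Without the filter 15 of 22 genes passed, 6 higher and 9 lower, and the median was -0.68.

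TRBV23 was at 8.50 ± 4.01% of the top 100 and 1.92 ± 0.146% of the other clonotypes (SD, n = 10 libraries each), so that its log2 fold change was 2.10 (SE 0.25; edgeR adjusted p = 1.69e-07), and it was higher in 10 of 10 libraries. TRBV30, at 4.0 ± 2.62% of the top 100 and 1.06 ± 0.123% of the others, had a log2 fold change of 1.88 ± 0.31. TRBV26 made up 12.2 ± 4.13% of the top 100 and 5.22 ± 0.626% of the others, a log2 fold change of 1.20 ± 0.20. TRBV31 made up 24.6 ± 6.74% of the top 100 and 11 ± 1.49% of the others, a log2 fold change of 1.15 ± 0.13 with an edgeR adjusted p of 8.56e-08. TRBV19, at 10.3 ± 2.87% of the top 100 and 7.22 ± 0.874% of the others, was also higher, with a log2 fold change of 0.50 and an edgeR adjusted p of 0.0116. TRBV29, named after its values were seen, completed the 6 with 6.0 ± 2.71% of the top 100 and 3.26 ± 0.295% of the others. The RefSeq annotation lists TRBV29 as a pseudogene segment and the other V genes named here as V segments.

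The Vbeta8 genes were rare among the top 100. TRBV13-1 was at 1.60 ± 2.22% of the top 100 and 5.79 ± 0.487% of the other clonotypes, a log2 fold change of -1.89 ± 0.45. TRBV13-3 was at 1.40 ± 1.26% of the top 100 and 4.85 ± 0.573% of the others, a log2 fold change of -1.81 ± 0.40. TRBV13-2 stood at 0.300 ± 0.483% of the top 100 and 6.03 ± 0.439% of the others, with too few members to be tested. Together the 3 genes gave 0, 0, 1, 9 and 2 members in the CNS4KO libraries, against 8, 3, 3, 3 and 4 in the CNS4Flox libraries.

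The other V genes called lower were TRBV20, TRBV12-2, TRBV12-1, TRBV16 and TRBV2. TRBV20 had 1.0 ± 1.41% of the top 100 and 3.36 ± 0.670% of the others. The Vbeta5 genes TRBV12-1 and TRBV12-2 had 3.10 ± 2.60% and 1.3 ± 1.16% of the top 100, against 6.09 ± 0.963% and 3.52 ± 0.430% of the others. TRBV16 had 3.30 ± 2.21% of the top 100 and 5.61 ± 0.382% of the others, with an edgeR adjusted p of 0.0230. It did not pass in 4 of 19 alternatives, the 50 highest counts, the 200 highest counts (adjusted p = 0.443), and without CNS4KO 1 or CNS4KO 3. TRBV2 had 1.80 ± 1.48% of the top 100 and 3.20 ± 0.463% of the others, with an edgeR adjusted p of 0.0498. It did not pass in 12 of 19 alternatives, among them other clonotypes with a count of at least 2 (adjusted p = 0.466), the 50 highest counts (0.284), ties left out (0.0791) and the leaving out of any 1 of 7 libraries. TRBV15 stood at 4.0 ± 3.23% of the top 100 and 5.75 ± 0.597% of the others and did not pass (edgeR adjusted p = 0.129). It passed lower with TMM (log2 fold change -0.96, adjusted p = 0.0393), with DESeq2 (-1.43, 0.00048), with the 50 highest counts (-1.38, 0.0063) and against other clonotypes with a count of at least 2 (-0.77, 0.0397).

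**Figure D2:**
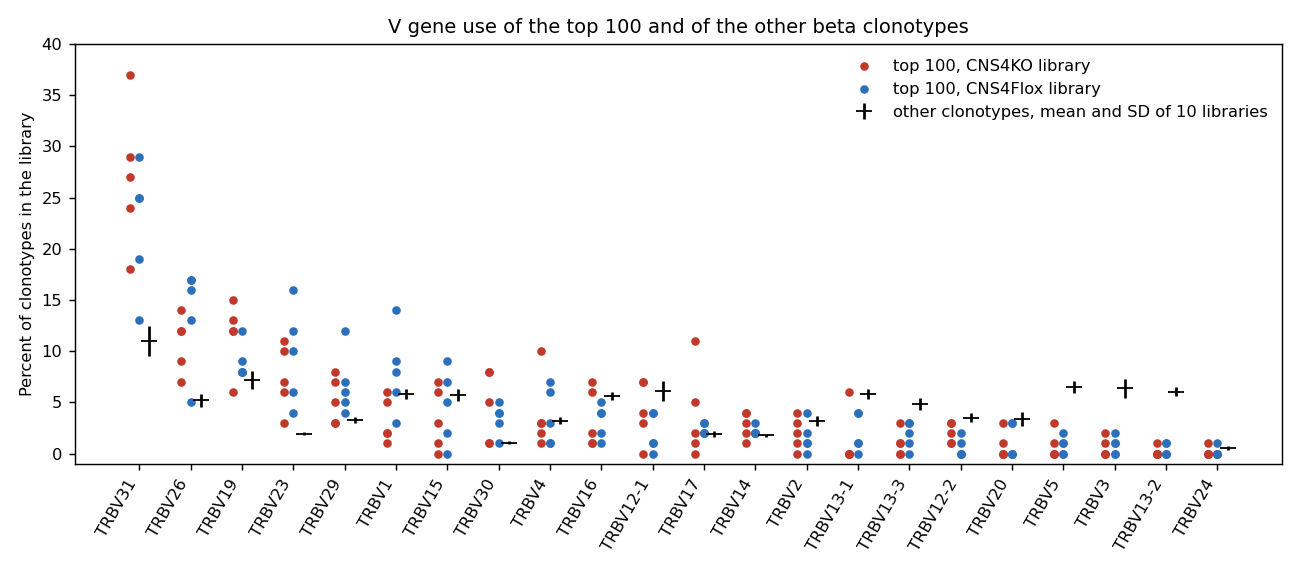
Percent of clonotypes that use each V gene, each clonotype counted once. Points are the top 100 of single CNS4KO (left) and CNS4Flox (right) libraries, and black marks are the mean and SD over 10 libraries of the other beta clonotypes. With ties in alphabetical order TRBV31 reaches 13 to 37% of the top 100, while the mean of the others is 11%. With ties in reverse order it reaches 18 to 38%.

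The split between higher and lower V genes depended on how libraries were scaled. With TMM normalisation 4 genes were higher and 8 lower, and the median log2 fold change was -0.40. With DESeq2's size factors 2 were higher and 9 lower, the median was -0.81, the adjusted p of TRBV31 was 0.103 and that of TRBV26 was 0.108. TRBV19 did not pass with TMM (adjusted p = 0.594) and turned to a log2 fold change of -0.26 with DESeq2, and the adjusted p of TRBV29 was 0.779 there. TRBV23 and TRBV30 passed higher in the top 100 under all 3 scalings. TRBV13-1 and TRBV13-3 passed lower under all 3, as did TRBV20, TRBV12-2, TRBV12-1, TRBV16 and TRBV2. With tied clonotypes in reverse order the log2 fold change of TRBV31 was 1.46 and that of TRBV23 was 1.58, TRBV19 and TRBV12-1 no longer passed (edgeR adjusted p = 0.0908 and 0.0630), and TRBV1 passed lower, with a log2 fold change of -1.36 and an edgeR adjusted p of 0.0012, against -0.09 and 0.744 in alphabetical order.

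Outside the top 100, too, V genes varied in the share of their clonotypes with more than 1 count. Among the other clonotypes 20.3 ± 6.22% had a count of at least 2 (SD, n = 10 libraries), and this share was 25.8% for TRBV31, 26.8% for TRBV23 and 24.8% for TRBV30, against 12.3% for TRBV13-2, 15.5% for TRBV13-3 and 14.9% for TRBV20. Not every gene followed this order. The share was 21.2% for TRBV13-1 and 21.7% for TRBV12-1, both lower in the top 100, against 19.9% for TRBV19, which was higher there, and it was 28.8% for TRBV17, which passed with ties in reverse order (edgeR adjusted p = 0.0028) but not in alphabetical order (0.116). Over the 22 V genes Spearman's rho between this share and the ratio of top 100 to other use was 0.83, a description over genes of the same libraries. Whether transcript level or amplification differs between V genes was not tested. Use of TRBV31 was 29 ± 11% at ranks 1 to 10, 24.1 ± 7.13% at ranks 11 to 100, 18.4 ± 5.32% in the next 100, 10.6 ± 4.15% from there to rank 1000 and 11 ± 1.5% in the clonotypes beyond them. TRBV26 made up 17%, 11.7%, 9.3%, 5.41% and 5.20% of the same ranges.

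Between the groups, 0 of 18 V genes passed in the top 100 (0%) by edgeR and 0 by DESeq2, and 1 had an unadjusted p under 0.05, TRBV1 by both tools. It had 2, 6, 5, 2 and 1 members in the CNS4KO libraries, against 8, 6, 3, 9 and 14 in the CNS4Flox libraries. Its mean was 3.20 ± 2.17 in CNS4KO and 8.0 ± 4.06 in CNS4Flox, a log2 fold change of -1.29 ± 0.54 with an edgeR adjusted p of 0.412. With ties in reverse order TRBV1 had 2, 6, 1, 1 and 1 members in CNS4KO, against 3, 1, 0, 4 and 4 in CNS4Flox, and a log2 fold change of -0.12. TRBV12-2, the next gene, had 3, 3, 1, 1 and 2 members in CNS4KO, against 0, 2, 0, 1 and 0 in CNS4Flox, a log2 fold change of 1.55 (edgeR adjusted p = 0.764). With ties in reverse order it had the same counts in CNS4KO, against 2, 3, 0, 1 and 0 in CNS4Flox, and a log2 fold change of 0.68.

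Lists of V genes frequent in other T cells were counted as well, with no test. The V genes usual in invariant NKT cells, TRBV1, TRBV13-2 and TRBV29, gave 10, 9, 12, 5 and 7 of 100 members in the CNS4KO libraries, against 15, 13, 16, 13 and 19 in the CNS4Flox libraries, which did not overlap. No single V gene of the 22 separated the groups in this way (0%), but a sum of 3 genes is not a like measure to a single gene. Of the TRBV1 members, 28 in CNS4Flox and 6 in CNS4KO were tied clonotypes kept at rank 100. With ties in reverse order the counts of the 3 genes together were 10, 9, 10, 4 and 9 in CNS4KO, against 15, 9, 13, 8 and 16 in CNS4Flox, and they overlapped. Their mean share of the top 100 was 11.9 ± 4.25%, and of the other clonotypes 15.1 ± 0.592%. The genes usual in mucosal-associated invariant T cells, TRBV13-1, TRBV13-2, TRBV13-3 and TRBV19, made up 14 ± 1.22 members in CNS4KO and 13.2 ± 3.9 in CNS4Flox, and 13.6 ± 2.76% of the top 100 against 23.9 ± 0.848% of the others. The Vbeta5 genes TRBV12-1 and TRBV12-2 made up 6.2 ± 3.56 members in CNS4KO and 2.6 ± 2.07 in CNS4Flox, and 6.4 ± 3.85 in CNS4KO and 4.6 ± 3.58 in CNS4Flox with ties in reverse order. Some of the genes reactive with endogenous superantigens, TRBV12-1, TRBV12-2, TRBV15 and TRBV16, made up 13 ± 5.57 members in CNS4KO and 10.4 ± 4.93 in CNS4Flox. These 4 held 11.7 ± 5.14% of the top 100 and 21.0 ± 1.13% of the other clonotypes. They are not a full list of such genes, so their share is not that of the class.

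J gene use of the top 100 gave no call in either comparison. TRBJ2-7 led with 10, 17, 15, 24 and 13 members in the CNS4KO libraries, against 17, 23, 16, 11 and 14 in the CNS4Flox libraries, followed by TRBJ2-4 with 133 and TRBJ2-5 with 127 of the 1000 members. In edgeR's test 0 of 12 J genes passed for the top 100 against the other clonotypes (0%), where 2 had an unadjusted p under 0.05 by edgeR and 1 by DESeq2, which also called 0. TRBJ2-7 was at 16.0 ± 4.59% of the top 100 and 19.6 ± 0.847% of the others (edgeR adjusted p = 0.142), and passed without CNS4KO 4 or without CNS4Flox 2. TRBJ2-1, next by p, was at 12.5 ± 3.50% of the top 100 and 10.4 ± 0.291% of the others (edgeR adjusted p = 0.296). Between the groups 0 of 12 passed (0%), and none had an unadjusted p under 0.05 by edgeR or DESeq2. TRBJ1-6 had the smallest p there, at 4.60 ± 2.51 members in CNS4KO and 3.0 ± 1.22 in CNS4Flox, before TRBJ2-4 at 12 ± 2.35 in CNS4KO and 14.6 ± 5.73 in CNS4Flox (edgeR adjusted p = 0.978 for both).

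TRBD1 was named in 637 members, TRBD2 in 315 and no D segment in 48. Among members with a D segment named, TRBD2 made up 31.3 ± 3.43% in CNS4KO and 34.9 ± 3.05% in CNS4Flox (exact permutation p = 0.135, adjusted p = 0.405). TRBD2 lies downstream of the TRBJ1 genes, so that joining by deletion links it to TRBJ2. It was named in 6.47 ± 4.38% of members with a TRBJ1 gene and in 45.5 ± 7.01% of those with a TRBJ2 gene. The same shares of the other clonotypes were 8.71 ± 0.378% and 47.8 ± 0.665%.

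CDR3 lengths ran from 10 to 18 residues with a median of 14 in each group, and 887 of the 1000 members had 12 to 15 residues. The mean length was 13.7 ± 0.159 residues in CNS4KO and 13.6 ± 0.134 in CNS4Flox (exact permutation p = 0.849). It was 13.7 ± 0.139 in the top 100 and 13.7 ± 0.0218 in the other clonotypes. The median number of inserted bases was 2 in each group, and 79 CNS4KO and 96 CNS4Flox members were counted with none. Some of these may hold 1 base between D and J.

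Mean inserted bases were 3.22, 3.42, 2.84, 2.58 and 3.51 in the CNS4KO libraries, against 2.35, 2.49, 2.63, 2.73 and 2.74 in the CNS4Flox libraries. Only CNS4KO 4 lay inside the CNS4Flox range. The means were 3.11 ± 0.394 in CNS4KO and 2.59 ± 0.167 in CNS4Flox, a difference of 0.526 bases (two-sided exact permutation p = 0.0397), which did not pass when adjusted over the 12 values compared between groups (adjusted p = 0.238). With this few libraries no lone value could pass that adjustment, even with groups that do not overlap. Members ending like TRBJ1-6, 23 in CNS4KO and 15 in CNS4Flox, were named TRBJ2-5 in the deposited tables with J positions of that gene, so their germline J bases were counted as inserted. Without them the means were 2.50 ± 0.361 in CNS4KO and 2.21 ± 0.160 in CNS4Flox (exact permutation p = 0.151), a difference of 0.291 bases. That setting was chosen after the data were seen. Over all clonotypes with a count of at least 5 the means were 2.79 ± 0.333 in CNS4KO and 2.66 ± 0.124 in CNS4Flox, a difference of 0.125 bases (exact permutation p = 0.627). Against the other clonotypes, with 2.88 ± 0.0447 inserted bases, the top 100 had 2.85 ± 0.398 over all libraries (exact sign-flip p = 0.818).

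A related CDR3 was one with the same V gene, J gene and length whose residues differ at 1 position. A related CDR3 anywhere in the same library was found for 39, 29, 34, 40 and 44 members in the CNS4KO libraries, against 39, 39, 48, 34 and 36 in the CNS4Flox libraries. Set against the other clonotypes, the share was 38.2 ± 5.37% in the top 100 and 33.4 ± 3.24% in the others, a difference of 4.81 ± 3.10 percentage points (SD of the 10 differences). It was higher in 9 of 10 libraries, all but CNS4KO 2 (exact sign-flip p = 0.0039, adjusted p = 0.043 over 11 values). This was the only one of the 11 values to pass. It did not pass with the 50 highest counts, with thinned counts, with other clonotypes of a count of at least 2, or without any 1 of 9 libraries, CNS4KO 2 being the exception. With 1 library left out, a lone value could pass only if all remaining libraries went the same way. The difference then stayed between 4.13 and 5.36. It also did not pass with the other clonotypes weighted to the V gene use of the members, where the difference was 4.21 (adjusted p = 0.0859). Without CNS4KO 5 and CNS4Flox 3 the difference was 3.87 and did not pass, and with so few libraries no lone value could. It did pass over all clonotypes with a count of at least 5, where the share was 38.1 ± 2.96% in those clonotypes and 33.3 ± 3.26% in the others and was higher in 10 of 10 libraries (exact sign-flip adjusted p = 0.0072). It also passed with the 200 highest counts, by residues, with 1-base neighbours merged and with ties in reverse order.

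**Figure D3:**
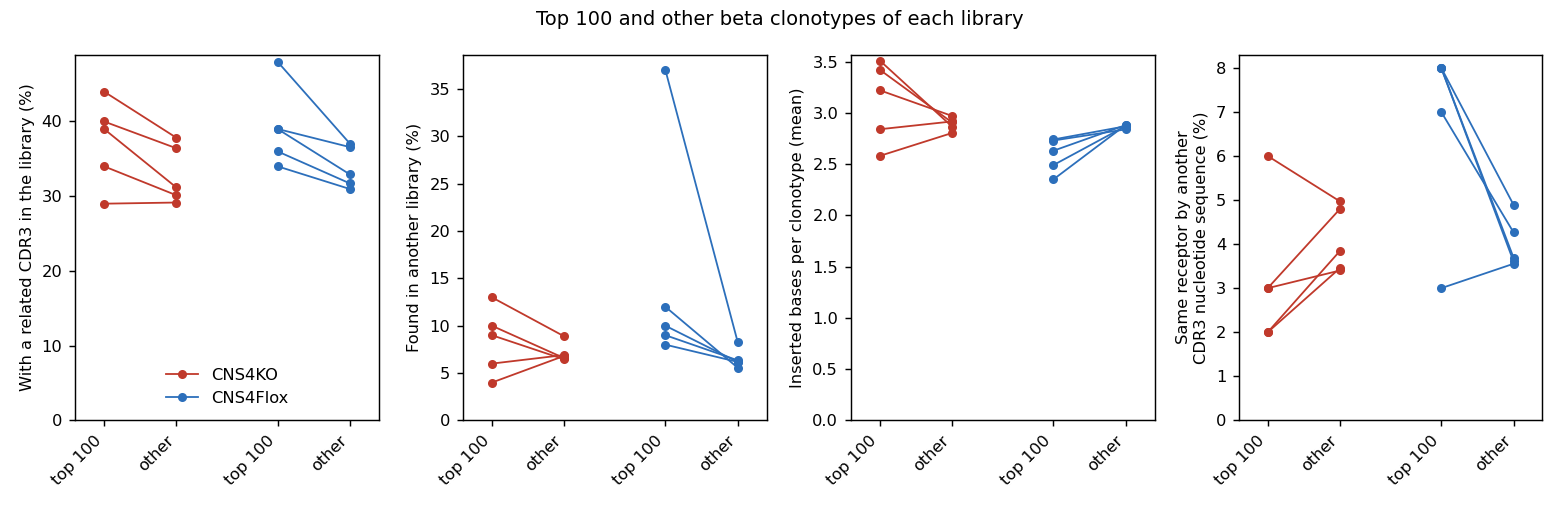
Values of the top 100 and of the other beta clonotypes, joined within each library, for CNS4KO (left) and CNS4Flox (right). Panels give the percent with a related CDR3 in the library, the percent found in another library, the mean number of inserted bases, and the percent whose receptor has another nucleotide sequence in the same library. The related share is higher in the top 100 in 9 of 10 libraries, and CNS4Flox 3 stands at 37% of its top 100 found elsewhere.

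Relatives inside a list were rare. Only 4 pairs of related receptors lay within the top 100 of 1 library, in CNS4KO 5, CNS4Flox 1, CNS4Flox 2 and CNS4Flox 3. Over all lists 34 groups joined 77 receptors, and the largest 2 had 4 receptors each. The first used TRBV26 and TRBJ1-3 and came from CNS4KO 2, CNS4Flox 1 (ranks 5 and 10, which are also the pair within that library) and CNS4Flox 2, with capitals as above.
CNS4KO 2 rank 44: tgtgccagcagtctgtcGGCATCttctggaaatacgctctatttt
CNS4Flox 1 rank 5: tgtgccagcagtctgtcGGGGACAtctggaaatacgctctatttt
CNS4Flox 1 rank 10: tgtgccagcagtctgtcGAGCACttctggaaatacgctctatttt
CNS4Flox 2 rank 3: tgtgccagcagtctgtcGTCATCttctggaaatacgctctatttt

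Their counts were 12 in CNS4KO 2, 10 and 8 in CNS4Flox 1 and 34 in CNS4Flox 2. All 4 kept the same TRBV26 bases and differed between the V and J matches. The other group of 4 used TRBV31 and TRBJ2-4, with counts of 14 in CNS4KO 2, 11 in CNS4Flox 3, 5 in CNS4Flox 4 and 8 in CNS4Flox 5. The pair within CNS4KO 5, with counts of 34 and 10, used TRBV26 and TRBJ2-3 with no D segment named.

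A clonotype with the same V and J genes that differs at 1 base of the CDR3 was called a neighbour. One in the same library was found for 4, 3, 5, 5 and 12 members in the CNS4KO libraries, against 9, 7, 11, 10 and 8 in the CNS4Flox libraries. None of the 10 leaders, the clonotypes with the highest counts, had one. The share was 7.40 ± 3.10% in the top 100 and 5.87 ± 0.974% in the others (exact sign-flip p = 0.119). A member whose receptor was also encoded by another nucleotide sequence of the same library was called convergent. There were 2, 2, 3, 6 and 3 in the CNS4KO libraries, against 8, 7, 8, 8 and 3 in the CNS4Flox libraries. The means were 3.20 ± 1.64% for CNS4KO and 6.8 ± 2.17% for CNS4Flox (two-sided exact permutation p = 0.0317, adjusted p = 0.238), so the difference did not pass, as no lone value could. Over all clonotypes with a count of at least 5 the exact permutation p was 0.143. The other clonotypes were at 4.05 ± 0.628%.

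Of the 1000 members 118 were found by nucleotides in at least 1 other library, 42 in CNS4KO and 76 in CNS4Flox lists. For 41 of them the highest count elsewhere was 1. The numbers were 10, 4, 9, 6 and 13 in the CNS4KO libraries, against 8, 12, 37, 10 and 9 in the CNS4Flox libraries. CNS4Flox 3 stood apart. Of its top 100, 30 occurred in CNS4KO 5, with a median count of 4 there, and 24 of these occurred in no other library. In the opposite direction 7 of the CNS4KO 5 top 100 occurred in CNS4Flox 3, and any other ordered pair of libraries shared 0 to 4. Of the 30, 0 had a higher count in CNS4KO 5 than in CNS4Flox 3, and 5 of the 7 had a higher count in CNS4Flox 3. CNS4Flox 3 and CNS4KO 5 follow each other in the sample order. The labels give no reason why these libraries would share clonotypes, and exchange of material between them was not tested. The other 8 lists held 68 members found elsewhere.

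**Figure D4:**
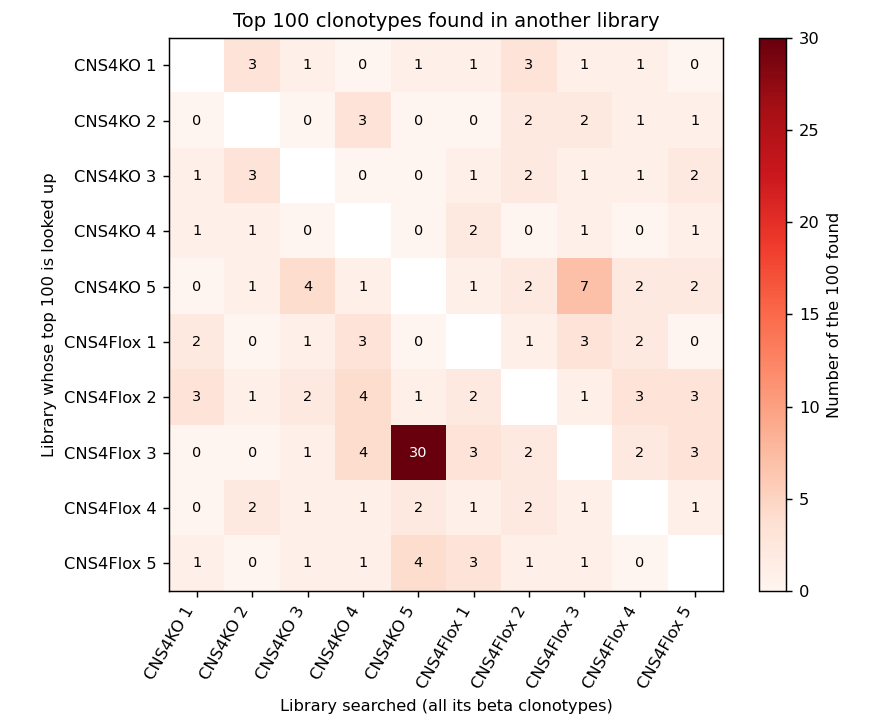
Number of the 100 clonotypes of each list (rows) found by nucleotides among all beta clonotypes of another library (columns). The cell for CNS4Flox 3 looked up in CNS4KO 5 holds 30 and its reverse 7, and every other cell holds 0 to 4.

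Only 6 clonotypes were in 2 lists, 5 of them in those of CNS4KO 5 and CNS4Flox 3, and the other in CNS4KO 1 and CNS4KO 3. The 5, with their V and J genes, were counted with up to 5 inserted bases.
TRBV23, TRBJ2-1: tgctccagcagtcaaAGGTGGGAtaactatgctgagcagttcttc
TRBV26, TRBJ2-1: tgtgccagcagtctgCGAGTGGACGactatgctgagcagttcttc
TRBV29, TRBJ1-3: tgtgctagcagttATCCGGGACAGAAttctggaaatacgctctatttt
TRBV31, TRBJ2-7: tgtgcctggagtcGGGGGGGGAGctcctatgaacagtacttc
TRBV4, TRBJ2-4: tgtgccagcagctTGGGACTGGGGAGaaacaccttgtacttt

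In CNS4KO 5 their counts were 44, 8, 15, 16 and 13, against 137, 15, 41, 40 and 16 in CNS4Flox 3, higher in CNS4Flox 3 for each. The clonotype shared by CNS4KO 1 and CNS4KO 3 (TRBV26, TRBJ2-4) had counts of 22 and 10. It was counted with no inserted base, but may hold 1 between D and J. Shared list members averaged 0.1 per pair of CNS4KO libraries, 0 per pair of CNS4Flox libraries and 0.2 per pair across the groups. Pairs within groups minus pairs across groups came to -0.15 (exact permutation p = 1), and to 0.0833 without the 2 libraries (exact permutation p = 0.857).

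The same receptor by V, J and CDR3 residues was found elsewhere for 267 members. Of the distinct receptors of the lists, 732 were in 1 library, 124 in 2 and 1 in 9. The members' receptors were found in 0.44, 0.40, 0.45, 0.50 and 0.73 other libraries on average in CNS4KO, against 0.61, 0.76, 0.96, 0.56 and 0.40 in CNS4Flox. Over all libraries the mean was 0.581 ± 0.185 in the top 100 and 0.424 ± 0.0217 in the others (exact sign-flip p = 0.0215, adjusted p = 0.0788), and the share found by nucleotides was 11.8 ± 9.24% in the top 100 and 6.81 ± 1.01% in the others (exact sign-flip p = 0.0215, adjusted p = 0.0788). Both were higher in 8 of 10 libraries and neither passed. Without CNS4KO 5 and CNS4Flox 3 the share by nucleotides was 7.25% in the top 100 and 4.85% in the others. The mean number of other libraries with the same receptor was then 0.381 ± 0.107 in the top 100 and 0.309 ± 0.0186 in the others, higher in 5 of 8 libraries (exact sign-flip p = 0.125).

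Only 14 receptors were in 2 lists, and none in 3. The 5 of them found in most libraries each reached the lists by 2 nucleotide sequences. These show how different joints give 1 protein loop.
CNS4Flox 2 rank 57: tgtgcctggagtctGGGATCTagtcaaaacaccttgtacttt
CNS4Flox 3 rank 47: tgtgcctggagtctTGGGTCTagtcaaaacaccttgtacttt
CNS4KO 2 rank 92: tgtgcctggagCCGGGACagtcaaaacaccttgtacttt
CNS4Flox 2 rank 34: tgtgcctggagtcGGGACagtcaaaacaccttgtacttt
CNS4KO 5 rank 6: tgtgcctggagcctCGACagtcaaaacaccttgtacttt
CNS4Flox 3 rank 67: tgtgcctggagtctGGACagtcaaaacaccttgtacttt
CNS4KO 3 rank 63: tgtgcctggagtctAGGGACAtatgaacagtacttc
CNS4KO 4 rank 71: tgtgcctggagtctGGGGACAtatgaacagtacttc
CNS4KO 4 rank 16: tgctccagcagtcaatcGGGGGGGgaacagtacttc
CNS4Flox 1 rank 61: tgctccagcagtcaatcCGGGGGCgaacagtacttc

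In the order printed, the first 3 receptors used TRBV31 with TRBJ2-4, the fourth TRBV31 with TRBJ2-7 and the fifth TRBV23 with TRBJ2-7. The first was found in 8 libraries, 5 CNS4KO and 3 CNS4Flox, by 7 nucleotide sequences whose counts summed to 33. The next was in 7 libraries, 2 CNS4KO and 5 CNS4Flox, and the one after it in 6, 2 CNS4KO and 4 CNS4Flox. The fourth was in 4 and the fifth in 3. Their joints were counted with 0 to 2 inserted bases, and may hold 1 more between D and J. The clonotype at rank 92 of CNS4KO 2 was itself found in 4 CNS4Flox libraries, with counts of 2, 1, 3 and 3.

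Presence elsewhere was also split by inserted bases as counted above, as a description with no test. In the top 100, 24.7 ± 17% of members with no inserted base were found by nucleotides in another library, against 9.16 ± 8.16% of those with some (SD, n = 10 libraries each). For the other clonotypes these shares were 18.0 ± 1.03% and 4.51 ± 1.0%. By residues, 55.7% of CNS4KO and 42.7% of CNS4Flox members without inserted bases were found elsewhere, and 17.1% of CNS4KO and 27.2% of CNS4Flox members with some. These shares by residues pool the members of each group. The split was not computed without CNS4KO 5 and CNS4Flox 3. By residues 37 CNS4Flox 3 members were found in CNS4KO 5. The 30 found there by nucleotides had 3.37 inserted bases on average, against 2.31 in the rest of that list. The difference between the top 100 and the others was itself compared between the groups for 11 values, and none passed. The smallest p this test can give is 0.00794, so no lone value could pass, even with groups that do not overlap. The smallest p was that of convergence, with a difference from the others of -0.894 ± 1.22 percentage points in CNS4KO and 2.80 ± 2.01 in CNS4Flox (exact permutation p = 0.0238, adjusted p = 0.175). For inserted bases the difference was 0.222 ± 0.371 in CNS4KO and -0.28 ± 0.178 in CNS4Flox (exact permutation p = 0.0317, adjusted p = 0.175). Without clonotypes ending like TRBJ1-6 it was 0.0753 ± 0.346 in CNS4KO and -0.213 ± 0.164 in CNS4Flox (exact permutation p = 0.103).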

How the data were processed

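TCR libraries of splenic Treg cells from 5 CNS4KO and 5 CNS4Flox samples were used, grouped by strain label. Each deposited table lists the clonotypes of 1 library. Per the file headers, a whole-number count and a fraction of the library's counts over both chains are given; neither header nor label says if they are reads or molecules. The deposited positions where the V, D and J matches end or start were used for joints. The submitters' processing notes name mm10; the aligner and clonotype caller are not given in the sources used here. Low counts limit precision: most clonotypes have a count of 1.

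All entries, alpha-chain CDR3s included, carry beta gene names, so the chain was taken from CDR3 endings, as the rule sets. Entries with the TRBJ1-6 ending named TRBJ2-5 were set to TRBJ1-6 (38 members). Inserted bases were the V to D and D to J gaps, the D to J gap counted from the smallest spacing in the files, or the V to J gap where no D was named. That spacing was 2 positions and its meaning is not stated, so 1 base between D and J may go uncounted. With that base counted, a setting added after seeing the data, inserted bases and the share without them kept their direction and side of the threshold.

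Single values were compared by two-sided exact permutation over 252 assignments (smallest p 0.00794) or over 1024 sign assignments within libraries (smallest p 0.00195), with Benjamini-Hochberg adjustment over 12, 11 and 11 values. Between groups, a lone value at the smallest p could not pass after adjustment. Numbers of clonotypes per gene with at least 10 members were tested with edgeR 4.0.16 (quasi-likelihood, no TMM), with DESeq2 1.42.0 as an alternative. Members, gene lists and tests were chosen with earlier results of these data known. Named V and J genes are the 3 most used, up to 10 past the threshold per comparison or else the 2 of smallest p, and the list members. Named clonotypes are leaders, receptors in most lists and largest related groups. Procedures were tested on simulated data. Gene positions are from RefSeq GRCm38. Alternatives were other list sizes, thinning to 19199 counts, merging of 1-base neighbours, tie order, count weights, other references, and leaving samples out. The computations ran in R 4.3.3 and in Python 3.11.15 (scipy 1.17.1, pandas 2.3.3, numpy 2.4.6; figures with matplotlib 3.10.9).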

Additional observations from a re-analysis of the deposited data

Results flagged for a closer look

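In 28 groups of 5 values, 5 values, 2 of them of CNS4KO 5, lay far from the other 4 of their group. The cut used is met by about 1 in 20 groups of independent normal values. These are small whole numbers and the measures overlap, so that rate does not hold here and no excess is read from it. CNS4Flox 3 had 37 of its 100 members found by nucleotides in another library, against 8 to 12 in the other CNS4Flox samples, and 30 of the 37 were in CNS4KO 5. Convergent members numbered 6 in CNS4KO 4, where the other CNS4KO samples had 2 to 3, and 3 in CNS4Flox 5, where the other CNS4Flox samples had 7 to 8. CNS4KO 5 had 12 members with a 1-base neighbour, against 3 to 5 in the other CNS4KO samples. It was also the only CNS4KO sample with related receptors inside its top 100, with 2 members against 0 in the other 4.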

How the results depend on the processing

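No paired analysis was possible because replicate numbers here follow sample order and the labels share none between groups. Differences are given as CNS4KO minus CNS4Flox (between groups), top 100 minus other clonotypes (within libraries) or the first difference applied to that difference (between groups, relative to others), and gene values are log2 fold changes. With the 50 highest counts, length was -0.112 between groups and -0.122 relative to others, the share without inserted bases 0.8 and 0.314, inserted bases within libraries 0.0601, related CDR3s within libraries 3.79 (adjusted p = 0.279), and TRBJ2-5 0.34 between groups and 0.0469 within libraries. With the 200 highest, values within libraries were -0.115 for length, 1.62 for no D, 5.67 for the same clonotype elsewhere, 0.175 for the same receptor elsewhere, 1.06 for convergence and 1.74 for 1-base neighbours, all of which then passed, and -0.4995 for TRBJ2; length relative to others was -0.00909, shared list members -0.3, TRBV26 0.0133, TRBV15 0.02998 and TRBV16 -0.45 between groups. With all clonotypes of a count of at least 5, within-library values that then passed were 1.45 for no D, 5.42 for the same clonotype and 0.201 for the same receptor elsewhere, 2.13 for convergence and 3.05 for 1-base neighbours. Between groups, length was then -0.0872, no inserted bases 0.0962, no D 0.208 and relatives within the list 0.894, and relative to others length was -0.0999 and no D 0.0794. Weighted by count, length was -0.0866 between groups. By residues, length (-0.119) and the same receptor elsewhere (0.3725) passed within libraries and shared list members were -0.2. Against other clonotypes with a count of at least 2, values within libraries were 0.02895 for length, 0.0909 for inserted bases, -1.64 for no inserted bases, -1.11 for TRBJ2 and 1.65 for related CDR3s, and relative to others length was -0.00627 and related CDR3s 0.483. Weighted to the members' V use, a setting added after seeing the data, they were 0.0227, 0.0015 for inserted bases, -0.183 for TRBJ2 and 4.21 for related CDR3s. Thinned, inserted bases were 0.0193, TRBJ2 -0.62 and related CDR3s 3.68 within libraries, and TRBJ2 0.205 relative to others. With ties reversed, inserted bases were 0.0816, TRBJ2 -0.548 and the same receptor elsewhere 0.205 (passing) within libraries, and TRBV31 -0.00948 and TRBJ2-5 0.0244 between groups; with ties left out TRBV31 was -0.00836. Without CNS4KO 5 and CNS4Flox 3, no inserted bases was -0.213 and related CDR3s 3.87 within libraries, shared list members within minus across groups 0.0833, TRBV16 -0.12 and TRBJ2-7 0.0219 between groups. With 1-base neighbours merged, their share was -0.461 within libraries. TMM gave TRBV16 -0.0349 between groups, DESeq2 TRBV19 -0.26 within libraries, and deposited J names TRBJ2-5 0.0521 between groups and 0.0208 within libraries. Leaving out 1 sample at a time, related CDR3s ranged from 4.13 to 5.36, inserted bases from -0.104 to 0.0268, no inserted bases from -0.191 to 1.58 and TRBJ2 from -0.1895 to 1.02 within libraries; length from -0.022 to 0.0815 and related CDR3s from -3.7 to 0.2 between groups; length from -0.0311 to 0.0668 and related CDR3s from -1.99 to 0.301 relative to others; shared list members from -0.25 to 0.0625; J genes called from 0 to 1 within libraries; TRBV16 from -0.34 to 0.31 and TRBJ2-7 from -0.23 to 0.12 between groups; and TRBJ2-5 from -0.0371 to 0.0373 within libraries. The causes were not tested. For whole tests 688 further values kept their direction and side of the threshold, or, for counts of genes called, stayed within 1.5 times. For single genes, 516 values did so, 21 lost a call (12 of TRBV2, 4 of TRBV16, 2 of TRBV19 and 1 each of TRBV31, TRBV26 and TRBV12-1) and 6 gained one (4 of TRBV15 and 2 of TRBJ2-7), all within libraries. Counts of 4 to 14 at rank 100 limit how well members are told from the clonotypes just outside.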
